A study of Mus musculus with 9 samples.

Results

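The 8 transcription factors described here, all of the interferon and cytokine response, were followed through the first days of airway epithelial culture: Irf1, Irf2, Irf3, Irf7 and Irf9 of the interferon regulatory factor (IRF) family, and Stat2, Stat3 and Stat6 of the signal transducer and activator of transcription (STAT) family. The 8 genes were taken by symbol from the 56748 genes of the deposited expression table, and all 8 passed the filter on low values. RNA was sequenced from primary airway basal stem cells of wild-type (WT) mouse trachea, grown at an air-liquid interface (ALI), where cells sit on a membrane with medium below and air above. Every group was WT and in ALI culture. By the labels the groups differed in time, with 3 libraries on day 1, 3 on day 3 and 3 on day 5. The submitters assign these days to proliferation, stratification and luminal specification. The labels used here give neither mouse age, sex and strain nor whether the libraries of a day came from separate animals or cultures. The p-values therefore cover the spread among these libraries alone, and that spread may be technical.

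IRF and STAT proteins carry signals from receptors to promoters. Type I and type III interferons bind their receptors and activate the kinases JAK1 and TYK2, which phosphorylate STAT2; it works with IRF9 in ISGF3, the complex that binds interferon-stimulated response elements. IRF3 is activated by kinases downstream of nucleic acid sensors and starts interferon transcription, and IRF7, itself an interferon-induced gene, amplifies it. IRF1 activates antigen presentation genes, IRF2 competes with it for the same sites, STAT3 carries signals of the interleukin-6 family, and STAT6 those of interleukin-4 and interleukin-13, which drive mucous differentiation of airway epithelium. Much of this regulation is by phosphorylation, which RNA levels do not show.

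The promoters of 4 of these genes are shown because they hold the sites that the factors themselves can bind, or, for Irf7, because it was the gene with the largest change. Irf9 also held a match, given below, but its windows are not shown. Each window runs from 250 bases before to 50 bases after the RefSeq transcription start on the gene's strand, from the RefSeq table of build GRCm38.p6, and capitals mark a match to 1 of 3 motifs searched on both strands. The Irf1 window is chr11:53769764-53770063 (plus strand), the Irf2 window chr8:46739495-46739794 (plus), the Stat2 window chr10:128270248-128270547 (plus) and the Irf7 window chr7:141266375-141266674 (minus).
Irf1: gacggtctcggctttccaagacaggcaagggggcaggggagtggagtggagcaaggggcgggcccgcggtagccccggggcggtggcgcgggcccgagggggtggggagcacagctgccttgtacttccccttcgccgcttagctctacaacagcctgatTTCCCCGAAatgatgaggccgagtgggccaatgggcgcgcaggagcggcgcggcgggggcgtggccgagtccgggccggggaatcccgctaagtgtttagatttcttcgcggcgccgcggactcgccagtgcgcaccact
Irf2: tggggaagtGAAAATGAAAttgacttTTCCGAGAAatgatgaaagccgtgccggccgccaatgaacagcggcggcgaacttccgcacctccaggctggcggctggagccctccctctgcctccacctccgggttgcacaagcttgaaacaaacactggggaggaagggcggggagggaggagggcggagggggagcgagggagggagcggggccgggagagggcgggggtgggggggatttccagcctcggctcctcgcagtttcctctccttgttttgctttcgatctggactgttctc
Stat2: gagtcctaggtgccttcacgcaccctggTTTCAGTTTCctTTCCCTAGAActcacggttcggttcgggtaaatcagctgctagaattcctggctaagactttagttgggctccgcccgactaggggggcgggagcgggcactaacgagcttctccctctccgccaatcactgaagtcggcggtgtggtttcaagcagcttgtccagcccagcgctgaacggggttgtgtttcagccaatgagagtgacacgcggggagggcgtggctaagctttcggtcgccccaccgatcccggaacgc
Irf7: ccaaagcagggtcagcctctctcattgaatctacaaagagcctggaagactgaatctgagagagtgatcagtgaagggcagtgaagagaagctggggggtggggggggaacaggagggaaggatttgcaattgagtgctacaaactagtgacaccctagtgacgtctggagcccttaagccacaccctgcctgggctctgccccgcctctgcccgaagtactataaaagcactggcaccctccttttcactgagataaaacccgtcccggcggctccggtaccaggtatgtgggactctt

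The Irf1 window held 1 gamma-activated sequence (GAS, TTCNNNGAA, the site of STAT dimers), TTCCCCGAA, whose first base lay 90 bases before the start. The Irf2 window held the core of an interferon-stimulated response element (ISRE, GAAANNGAAA), GAAAATGAAA, at 241 bases before the start, and a GAS, TTCCGAGAA, at 224 bases before it. In the Stat2 window an ISRE core was on the minus strand at 222 bases before the start, printed above as TTTCAGTTTC, and was followed by a STAT6-type site (TTCNNNNGAA), TTCCCTAGAA, at 210 bases before the start. No motif overlapped another in these windows. Irf1 and Irf9 each had a further window with no match, and the first window of Irf9 held a STAT6-type site, TTCCTGGGAA. The windows of Irf7, Irf3, Stat3 and Stat6 held none of the 3 motifs, which says only that these letters are not in those windows. Each motif was thus in the windows of 2 of the 8 genes (25.0%), while among all genes with a window 3.99% held the ISRE core, 9.55% the GAS and 8.01% the STAT6-type site. These matches are descriptions of sequence and were not tested for binding.

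Libraries held 16.4 to 35.1 M reads, the day means being 30.8, 21.9 and 17.6 M in the order of the days. Levels below are normalized counts, that is, reads divided by the size factor of the library. All 8 basal cell markers passed the filter. Their summed level was 249121 to 261258 on day 1, 406658 to 465674 on day 3 and 226327 to 309723 on day 5. Krt5 was at 108199 ± 5700 normalized counts on day 1 and 38922 ± 5820 on day 5 (SD, n = 3). By mean, Krt14, Trp63 and Itga6 were also lower on day 5 than on day 1, and Krt15, Ngfr, Dapl1 and Aqp3 were higher. All 8 secretory markers passed too. Their summed level was 21583 to 23324 on day 1, 63173 to 68186 on day 3 and 466442 to 606485 on day 5. Krt8 (12601 ± 771) and Krt18 (9236 ± 362) made most of the day 1 sum. They were at 22813 ± 1400 and 19587 ± 1470 on day 3, and by mean slightly below day 1 on day 5 (12066 ± 1810 and 8450 ± 1390). By mean, Scgb1a1, Scgb3a1, Scgb3a2, Cyp2f2, Bpifa1 and Muc5b were higher on day 5 than on day 1. Of 24 leukocyte markers, 7 passed the filter, and Tyrobp, Siglech, Cd8a and Ncr1 had no read in any library. The summed leukocyte list was 735 to 1417 on day 1, 3861 to 4074 on day 3 and 63866 to 82349 on day 5, of which Lyz2 made 70299 ± 9770 on day 5, and without Lyz2 the ranges were 735 to 1416, 3204 to 3501 and 510 to 901. Without Lyz2, Cd68 made the largest part of the day 3 sum, with means of 259, 1612 and 163 on days 1, 3 and 5. Bst2, at 1324 ± 133 on day 3, is in the leukocyte list and is also interferon-induced. By mean, Cd74 (4.18 and 33.2), Itgam (3.73 and 18.2) and Fcer1g (3.68 and 11.5) were also higher on day 3 than on day 1. Others were lower, among them Ly6c2 (682 and 370), S100a8 (5.11 and 1.19) and Ptprc (3.47 and no read). Of 10 fibroblast markers 1 passed, Dcn, with no read on days 1 and 3 and 112 ± 16.1 on day 5, and the list summed to 6.1 to 14.9, 4.02 to 8.88 and 105 to 139 on the 3 days. Summed transcripts of 4 Y-linked genes fell from 3137 ± 113 on day 1 to 324 ± 24.2 on day 3 and were 461 ± 98.3 on day 5, while Xist was 1825 ± 246, 5998 ± 507 and 7373 ± 1290. These values moved with day, and their part in the results below was not tested. The labels used here state neither sex nor the animals of each day. A difference in animals or cultures between days therefore cannot be told apart from time in these comparisons. In such bulk samples, fewer cells of a type and less RNA per cell cannot be told apart.

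All 8 factors differed across the 3 days (limma F test, adjusted p = 2.50e-08 for Irf7 to 0.00474 for Stat2), as did 91.4% of the 17338 tested genes. Between day 1 and day 3, 5 rose (Irf1, Irf3, Irf7, Irf9 and Stat2) and 3 fell (Irf2, Stat3 and Stat6), where 36.1% of tested genes rose and 37% fell; the falls of Irf2 and Stat3 were absent after taking out a length and GC trend (below). Between day 3 and day 5, 2 rose (Irf2 and Stat3), 1 fell (Irf3) and 5 did not pass, where 34.8% of tested genes rose and 32.4% fell. On day 5 against day 1, 7 were higher and Stat6 was lower, where 36.7% of tested genes were higher and 37.7% lower. The median log2 change of the 8 was 1.12, -0.081 and 0.82 in these comparisons, and that of all tested genes 0.0034, 0.055 and -0.0565. The share of genes called was so high that a call by itself sets a factor apart little. The comparisons share libraries, so they are not independent of each other. Log2 changes were estimated with limma on log2(normalized count + 1), each given with its standard error (SE), and a change passed when its two-sided p, adjusted by Benjamini-Hochberg over all tested genes, was below 0.05. Where a result depended on it, values are also given for libraries scaled by total reads in place of size factors, for quantile normalization, and after a trend of each library with transcript length and GC content was taken out. The last of these also set the mean log2 level of the genes with known length and GC to the same value in every library. Its values therefore hold a change of scaling and the removal of the trend together.

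**Figure D1:**
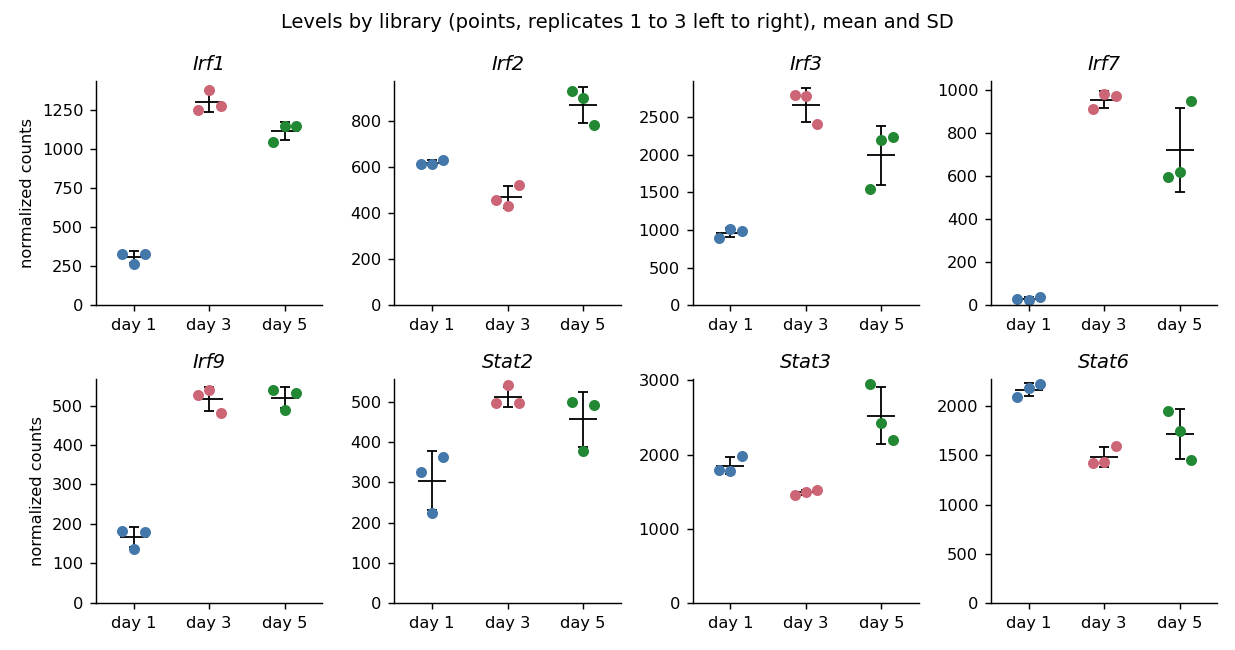
Normalized counts of each factor (y axis, from 0) by day, with 1 point per library, the mean as a horizontal line and the SD as a bar (n = 3). Irf7 lies at 24.9 to 37.6 on day 1 and at 598 or above later, while Irf2 and Stat3 are lowest on day 3 and highest on day 5.

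Stat2 and Irf9 encode parts of ISGF3, which carries type I and type III interferon signals. Stat2 (ENSMUSG00000040033, chromosome 10) had 325, 223 and 364 normalized counts in the 3 day 1 libraries, 498, 542 and 498 on day 3, and 501, 378 and 492 on day 5. Every day 1 value was below every later value, and the day 3 and day 5 values overlapped. It rose 1.72-fold to day 3 (log2 change 0.78, SE 0.18, adjusted p = 0.00273; 0.51 under total reads, adjusted p = 0.0429) and was 1.52-fold above day 1 on day 5 (log2 change 0.60, SE 0.18, adjusted p = 0.0116; 0.40 without replicate 2 of day 1). From day 3 to day 5 its log2 change was -0.18 (SE 0.18, adjusted p = 0.411), 0.16 under total reads, and -0.57 with a call after taking out length and GC (adjusted p = 0.0133). Irf9 (ENSMUSG00000002325, chromosome 14), which gives ISGF3 its DNA contact, had 182, 137 and 180 on day 1, 526, 540 and 482 on day 3, and 540, 489 and 532 on day 5. It rose 3.11-fold (log2 change 1.64, SE 0.13, adjusted p = 2.69e-06) and then stayed within its spread (log2 change 0.013, SE 0.13, adjusted p = 0.936). Removing a trend with transcript length and GC content ended the Stat2 call on day 5 against day 1 (log2 change 0.35, adjusted p = 0.0858) and turned the Irf9 change from day 3 to day 5 to -0.37 (adjusted p = 0.0228). The total reads scaling gave 0.35 for that Irf9 step (adjusted p = 0.0602) and quantile normalization -0.027.

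Irf3 and Irf7 encode the factors that act on interferon genes themselves. Irf7 (ENSMUSG00000025498, chromosome 7) had the largest change of the 8. It stood at 31.2, 24.9 and 37.6 normalized counts on day 1, which were 46, 30 and 62 reads, and at 913, 984 and 973 on day 3. On day 5 the values were 598, 621 and 950, so that 2 libraries lay below the day 3 range and 1 within it. The rise to day 3 was 30.1-fold (log2 change 4.91, SE 0.20, adjusted p = 1.30e-07), and the level on day 5 was 22.2-fold that of day 1 (log2 change 4.48, SE 0.20, adjusted p = 2.28e-08). From day 3 to day 5 the log2 change was -0.44 (SE 0.20, adjusted p = 0.0749), and without replicate 3 of day 5 it was -0.65 and passed (adjusted p = 0.00971). It also passed in limma's voom fit on reads (adjusted p = 0.0287) and after the length and GC trend was taken out (-0.58, adjusted p = 0.0201). Irf3 (ENSMUSG00000003184, chromosome 7) had 899, 1014 and 981 on day 1, reached 2795, 2775 and 2401 on day 3 and had 1540, 2197 and 2235 on day 5. No 2 days overlapped, although replicate 1 of day 5 lay well below the other two. The gene rose 2.75-fold (log2 change 1.46, SE 0.14, adjusted p = 6.91e-06), then fell by 0.43 on the log2 scale (SE 0.14, adjusted p = 0.0193) and ended 2.04-fold above day 1 (log2 change 1.03, SE 0.14, adjusted p = 6.45e-05). The first rise was 0.68 on the log2 scale with length and GC taken out. Without replicate 1 of day 5 the fall to day 5 was -0.26. It was not called under total reads (-0.10), under quantile normalization (-0.12), without replicate 1 of day 3 (adjusted p = 0.0648) or without replicate 2 of day 3 (adjusted p = 0.0636), and the day 5 excess over day 1 shrank to 0.17 (adjusted p = 0.156) once the length and GC trend was removed.

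Irf1 and Irf2 encode an activator and its antagonist, and to day 3 Irf1 rose while Irf2 fell, the latter not after taking out length and GC. Irf1 (ENSMUSG00000018899, chromosome 11) had 328, 267 and 331 normalized counts on day 1, 1250, 1380 and 1277 on day 3, and 1048, 1150 and 1148 on day 5. The days did not overlap. It rose 4.23-fold (log2 change 2.08, SE 0.11, adjusted p = 2.64e-07) and on day 5 was 3.62-fold above day 1 (log2 change 1.86, SE 0.11, adjusted p = 1.17e-07; 1.05 after taking out length and GC). The step from day 3 to day 5 was -0.22 on the log2 scale (SE 0.11, adjusted p = 0.0891), and 0.11 under total reads. It was called lower after taking out length and GC (-0.49) and without replicate 2 of day 1 (adjusted p = 0.0441). Irf2 (ENSMUSG00000031627, chromosome 8) had 610, 611 and 629 on day 1, 455, 430 and 520 on day 3, and 926, 896 and 779 on day 5. It was therefore lowest on day 3 and highest on day 5 in every library. The gene fell by 0.40 on the log2 scale (SE 0.11, adjusted p = 0.00623; by 0.67 under total reads), and then rose 1.85-fold (log2 change 0.89, SE 0.11, adjusted p = 5.21e-05). Without the length and GC trend the first of these was 0.026 (adjusted p = 0.795), so the fall to day 3 was not seen under that setting, while the rise to day 5 remained at 0.50 (adjusted p = 0.000334).

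Stat3 and Stat6 encode the factors of interleukin-6-type and interleukin-4-type signals. Stat3 (ENSMUSG00000004040, chromosome 11) had 1798, 1781 and 1976 normalized counts on day 1, 1455, 1493 and 1519 on day 3, and 2947, 2429 and 2197 on day 5. Its days did not overlap. It rose 1.68-fold from day 3 to day 5 (log2 change 0.75, SE 0.11, adjusted p = 0.000176; 0.26 with length and GC taken out) and ended 1.35-fold above day 1 (log2 change 0.44, SE 0.11, adjusted p = 0.00403; 0.84 under quantile normalization). The preceding log2 change of -0.31 (SE 0.11, adjusted p = 0.0241) was not firm: it was 0.040 after taking out length and GC, -0.18 under quantile normalization (adjusted p = 0.204), and did not pass without replicate 3 of day 1 (0.0921), replicate 1 of day 3 (0.0692) or replicate 2 of day 3 (0.0590, all adjusted p). Stat6 (ENSMUSG00000002147, chromosome 10) had 2097, 2185 and 2228 on day 1, 1423, 1429 and 1600 on day 3, and 1950, 1750 and 1452 on day 5. All day 1 values were above all later ones, and the day 5 values spanned most of the day 3 range and beyond. It fell by 0.55 on the log2 scale to day 3 (SE 0.11, adjusted p = 0.00109). From day 3 to day 5 the log2 change was 0.20 (SE 0.11, adjusted p = 0.130), and it passed under total reads (0.54), under quantile normalization (0.42) and without replicate 3 of day 5 (0.32), but was -0.052 without the length and GC trend. Against day 1 it was lower on day 5 by a log2 change of -0.35 (SE 0.11, adjusted p = 0.0157; -0.73 with length and GC taken out), a call lost under total reads (adjusted p = 0.0936), under quantile normalization (-0.0034), without replicate 3 of day 1 (adjusted p = 0.0513) and without replicate 3 of day 5 (adjusted p = 0.0527).

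Some exons are shared with neighbouring genes in the GENCODE M21 annotation of GRCm38, and the sources used here do not state the strand setting of the counting, so reads in those bases cannot be assigned to 1 gene. The opposite-strand share was 3.40% of exonic bases for Irf1 (with Gm17334), 2.56% for Irf3 (Bcl2l12), 1.19% for Irf7 (Phrf1), 0.756% for Stat3 (Stat5a, and 14.4% of its last 500 bases) and 0.909% for Stat6 (Nab2). Irf9 shared 2.28% with Rnf31 on the same strand, and Irf2 and Stat2 shared none.

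The 2 successive steps were then set against each other, the later minus the earlier, in 1 contrast. It passed for all 8 factors, where it passed for 70.7% of tested genes, with 3 above 0 (Irf2, Stat3 and Stat6) and 5 below (Irf1, Irf3, Irf7, Irf9 and Stat2). The difference of the 2 steps was -5.35 for Irf7 (SE 0.35, adjusted p = 3.60e-06), -2.30 for Irf1 (SE 0.19, adjusted p = 8.54e-06) and 1.29 for Irf2 (SE 0.19, adjusted p = 0.000152; 0.47 with length and GC taken out), all on the log2 scale. For Stat2 it was -0.96 (SE 0.32, adjusted p = 0.0194), -1.50 without the length and GC trend, and a call lost under total reads (-0.35) and without replicate 2 of day 3 (adjusted p = 0.0740). For Stat3 it was 1.06 (SE 0.19, adjusted p = 0.000562), and 0.22 (adjusted p = 0.109) without the length and GC trend. Irf2 and Stat3 were lowest on day 3 and highest on day 5 by the deposited size factors, a low point not seen for either after taking out length and GC.

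**Figure D2:**
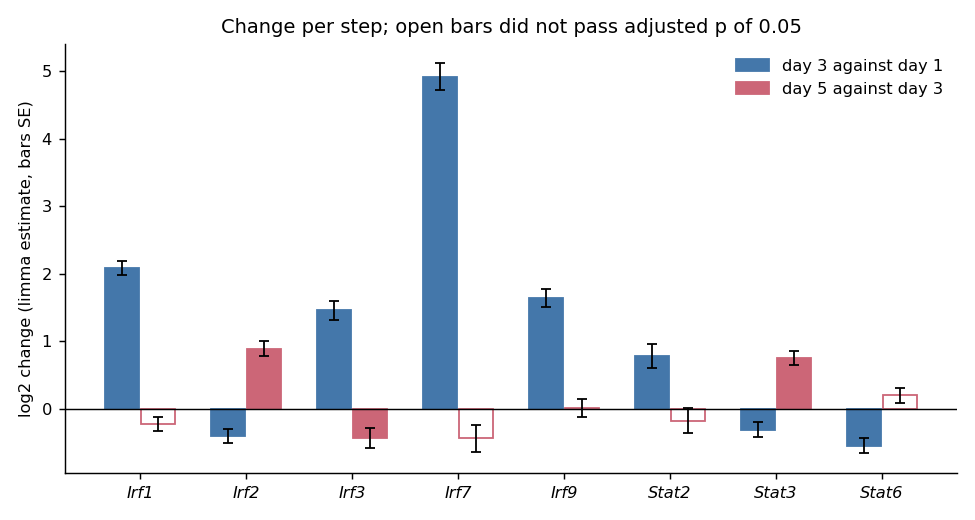
Estimated log2 change of each factor (y axis) for day 3 against day 1 (blue) and day 5 against day 3 (red), with the SE as error bar; open bars had an adjusted p of 0.05 or more. The blue bar of Irf7 reaches 4.91, and Irf2 and Stat3 have a blue bar below 0, which lay near 0 after taking out length and GC, and a red bar above it.

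Ratios of 2 factors within a library do not depend on the size factor. A trend of a library with transcript length and GC content can still move them, and it was not taken out here. Irf1 to Irf2 was 0.537, 0.436 and 0.527 on day 1, 2.75, 3.21 and 2.46 on day 3, and 1.13, 1.28 and 1.47 on day 5. The 3 days did not overlap, and the ratio was below 1 on day 1 only. Irf7 to Irf3 was 0.0325 ± 0.00714 on day 1, 0.362 ± 0.0399 on day 3 and 0.365 ± 0.0739 on day 5, an 11.3-fold gain to day 3 and a change of 0.998-fold after it. Stat2 to Irf9 declined from 1.81 ± 0.198 to 0.996 ± 0.0443 and 0.876 ± 0.0890. Stat2 to Stat3 was 0.164 ± 0.0331, 0.345 ± 0.0176 and 0.183 ± 0.0361, with day 1 and day 5 overlapping. Stat6 to Stat3 was 1.17 ± 0.0502, 0.996 ± 0.0507 and 0.681 ± 0.0341, each day apart from the others. Of the 15 comparisons of ratios, 13 had groups that did not overlap, each with an exact two-sided permutation p of 0.1, the smallest that 3 against 3 libraries allow, and 0.115 after Benjamini-Hochberg adjustment over the 15. None can therefore reach 0.05. How often ratios of other gene pairs part in this way was not computed, so the count is not read as particular to these pairs. The other two were Irf7 to Irf3 from day 3 to day 5 (exact p = 1.0) and Stat2 to Stat3 on day 5 against day 1 (exact p = 0.6).

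**Figure D3:**
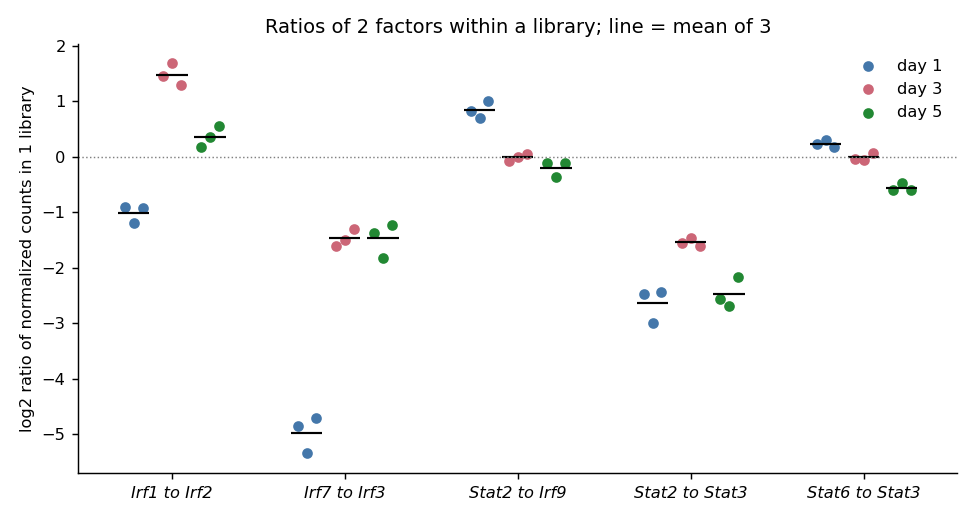
Log2 ratio of the normalized counts of 2 factors in the same library (y axis, 0 means equal counts) for 5 pairs, coloured by day, with the mean of 3 libraries as a line. Irf1 to Irf2 lies below 0 on day 1 and above 0 on days 3 and 5, and Irf7 to Irf3 lies near -5 on day 1 and near -1.5 later.

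Levels of different genes were compared per kilobase of the principal transcript (normalized counts per kb). On day 1 the order was Stat6 (575 ± 17.7), Irf3 (475 ± 29.0), Stat3 (410 ± 24), Irf2 (247 ± 4.19), Irf1 (144 ± 17.0), Stat2 (69.3 ± 16.6), Irf9 (67.7 ± 10.4) and Irf7 (16.3 ± 3.31), in which the libraries of Stat2 and Irf9 overlapped. On day 3 Irf3 led at 1310 ± 109, followed by Irf1 (610 ± 32.2), Irf7 (499 ± 19.9), Stat6 (393 ± 26.6), Stat3 (330 ± 7.08), Irf9 (210 ± 12.3), Irf2 (187 ± 18.7) and Stat2 (117 ± 5.77), with Irf9 and Irf2 overlapping. On day 5 Irf3 again stood first at 980 ± 192. Stat3 (559 ± 85.0), Irf1 (522 ± 27.2), Stat6 (455 ± 66.4), Irf7 (377 ± 103) and Irf2 (347 ± 31.2) each overlapped their neighbour in the order, and Irf9 (212 ± 11.1) and Stat2 (104 ± 15.6) came last. Irf7 thus moved from the last place to the third by day 3, and Stat6 from the first to the fourth. With the longest annotated transcript as the length, an alternative chosen after seeing the data, Stat6 (393) stood above Irf7 (295) on day 3, and Irf3 still led on days 3 and 5.

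The genes whose pattern over the 9 libraries was most like each factor were named by the smallest root-mean-square difference of centred log2 values, as a description. For Irf7 they were Psmb8 (0.259), Ifit3 (0.296) and Psmb9 (0.311), 2 immunoproteasome subunits and an antiviral protein; their distances were the largest of any factor's nearest genes. Psmb8 had 14.1, 448 and 316 normalized counts on days 1, 3 and 5. Nearest to Irf1 were Acbd4 (0.0754), Misp (0.0783) and Smim14 (0.101), and to Irf3 Tbcc (0.0464), Cope (0.0510) and Tpt1 (0.0564). Irf9 was nearest to Slc43a2 (0.0887) and Stat2 to Rassf6 (0.119). For Irf2 the nearest was Ndst2 (0.0639), for Stat3 Zfp652 (0.0607) and for Stat6 Arhgap17 (0.0388), closely followed by Ikbkb (0.0419). Among the 8 themselves the closest pair was Irf2 and Stat3 (0.103), then Irf1 and Irf9 (0.199).

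Other genes of both families were followed as a list of 11, of which Stat4, with 1, 3 and 3 reads on days 1, 3 and 5, was not tested. Of the 10 tested, 7 rose and 2 fell to day 3, with a median log2 change of 0.97, where 36.1% of all tested genes rose and 37% fell. After it 4 rose and 3 fell, near the 34.8% and 32.4% of all tested genes. The counts were 6 and 4 for the first step and 2 and 4 for the next after taking out length and GC, and 6 and 3, then 6 and 2, under total reads. Irf5 went from 230 ± 28.1 to 489 ± 17.5 and back to 289 ± 40.8. Stat5a rose at both steps, from 66.9 ± 3.31 to 158 ± 3.33 and 232 ± 28.9, while Stat5b fell from 467 ± 18.3 to 308 ± 18.8 and then rose to 440 ± 81.9. Irf2bpl, of the family of IRF2-binding proteins, rose after day 3, from 1489 ± 45.8 to 3348 ± 563 (log2 change 1.16, SE 0.12, adjusted p = 1.98e-05). Irf4, known from blood cells, rose from 2.27 ± 0.544 to 31.8 ± 6.93 and fell to 1.60 ± 0.858. Irf8, also known from blood cells, rose from 3.70 ± 2.22 to 18.4 ± 3.50 and was 15.5 ± 3.63 on day 5, within the day 3 spread.

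Transcripts of the interferons listed were almost undetected, where Ifna1, Ifna2 and Ifna4 were the only Ifna genes on the list. Of 21 ligands listed, 6 had no read in any library (Ifna2, Ifna4, Ifng, Il13, Il22 and Osm), which allows up to 0.0142 reads per M reads, given 210.7 M reads in all, a limit that covers counting error only. A further 7 had 1 to 10 reads in the 9 libraries together, among them Ifnb1 with 3, Ifna1 with 1, Ifnl2 with 6 and Ifnl3 with 2. All reads of Ifnb1 and Ifnl2 were on day 3, and Ifnl3 had 1 on day 3 and 1 on day 5. The read of Ifna1 and the 3 of Ifnk were on day 1, and Ifne had 1 on day 1 and 4 on day 5. Such counts are too few to compare days. Il6 had 2 reads in all. Of the other ligands of its family, Clcf1 fell from 1429 ± 233 to 528 ± 127 normalized counts to day 3 (log2 change -1.45, SE 0.17, adjusted p = 2.95e-05), Ctf1 rose from 36.7 ± 11.8 to 191 ± 9.95 and 539 ± 86.0, and Lif fell after day 3, from 1579 ± 334 to 547 ± 92.3. Il4, a ligand upstream of Stat6, had 195 reads in all and rose at both steps, from 6.93 ± 2.47 normalized counts on day 1 to 40.4 ± 4.14 on day 5 (adjusted p = 0.00046 and 0.0403 for the steps). Over the 7 tested ligands, 3 rose and 2 fell to day 3, where 36.1% of all tested genes rose and 37% fell.

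Of 20 receptors and kinases, all tested, 8 rose and 5 fell to day 3, where 36.1% of all tested genes rose and 37% fell. After it 11 rose and 2 fell, where 34.8% rose and 32.4% fell, with median log2 changes of 0.19 and 0.41. Without the length and GC trend the counts were 11 and 4, then 7 and 6. The shared interleukin-6 receptor chain Il6st fell and then rose, with 1996 ± 134, 752 ± 47.6 and 4378 ± 1250 normalized counts. Il13ra1, the receptor chain upstream of Stat6, was at 821 ± 39.0, 595 ± 47.3 and 3567 ± 624, the last step a log2 change of 2.57 (SE 0.12, adjusted p = 1.44e-07). Jak1, the kinase shared by these receptors, fell from 2585 ± 162 to 991 ± 97.6 and was 1333 ± 307 on day 5. Il10rb, a chain of the type III interferon receptor, rose at both steps from 354 ± 34.7 to 626 ± 17.8 and 1255 ± 68.4.

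Among 19 negative regulators, 6 rose and 9 fell to day 3, and 6 rose and 5 fell after it, which lies near the shares over all tested genes (36.1% and 37%, then 34.8% and 32.4%). The latter counts were 12 and 1 under total reads, 7 and 3 under quantile normalization and 2 and 8 without the length and GC trend. Usp18, a brake on interferon receptor signalling that is itself interferon-induced, rose from 30 ± 6.15 to 491 ± 13.6 normalized counts (log2 change 4.01, SE 0.18, adjusted p = 1.35e-07) and was 546 ± 77.7 on day 5. Nmi, which binds STAT proteins, rose from 85.6 ± 2.54 to 487 ± 66.2. Socs3, the feedback inhibitor of STAT3 signals, rose from 184 ± 7.60 to 408 ± 31.1 and fell to 256 ± 25.0. Socs6 fell from 1781 ± 209 to 608 ± 61.9. Of 19 tested genes upstream of IRF3 and IRF7, 7 rose and 7 fell to day 3, close to the 36.1% and 37% of all tested genes, and 3 rose and 5 fell after it (34.8% and 32.4%), with 5 and 9, then 10 and 3, under total reads and 0 and 9 for the second step without the length and GC trend. Sting1, the adaptor of cytosolic DNA sensing, rose from 307 ± 114 to 1828 ± 151 and fell to 718 ± 20.3, while Cgas, the sensor that feeds it, fell from 258 ± 12.4 to 63.7 ± 14.2 and stayed at 63.6 ± 12.9. Ikbke, a kinase of IRF3 and IRF7, was highest on day 3, at 2641 ± 276 between 1371 ± 57.2 and 1310 ± 47.3.

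Most known ISGF3 targets rose to day 3, as Stat2 and Irf9 did. Of 30 tested, 27 rose and 0 fell to day 3 (26 and 2 under total reads), with a median log2 change of 4.33, where 36.1% of all tested genes rose and 37% fell. From day 3 to day 5, 6 rose and 7 fell, with a median of -0.03, where 34.8% rose and 32.4% fell. The 3 that did not pass the first step were Eif2ak2, Herc6 and Samd9l. The second-step counts were 8 and 4 under total reads and 5 and 11 after taking out length and GC. The antiviral enzyme gene Oasl2 went from 15.8 ± 5.28 to 1181 ± 85.8 and 1051 ± 121 normalized counts, and Rsad2, which encodes viperin, from 0.630 ± 0.608 to 92.0 ± 20.5 and 96.7 ± 37.1. Targets parted after day 3: Oasl1 dropped to 177 ± 60.8 from 1607 ± 167 (adjusted p = 7.92e-07 for a log2 change of -3.23, SE 0.21) and Bst2, a tether of budding virus, from 1324 ± 133 to 448 ± 194, while Cmpk2 rose from 21.3 ± 4.42 to 97.5 ± 18.5 and Ddx60 from 23.8 ± 4.95 to 89.2 ± 37.8. Of 21 tested targets of IRF1 and type II interferon, 18 rose and Socs1 fell to day 3 (against the same shares), with a median of 2.23, and 4 rose and 2 fell after it (9 and 1 under total reads, 5 and 4 under quantile normalization, 2 and 7 without the length and GC trend). Casp1, which processes interleukin-1 beta, rose at both steps from 9.92 ± 1.39 to 217 ± 31.5 and 474 ± 59.1, and Psmb10 rose from 205 ± 5.88 to 1513 ± 257 and fell to 606 ± 154.

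Targets of STAT3 and STAT6 were called in both directions at both steps. Of 23 tested STAT3 targets, 12 rose and 8 fell to day 3 (6 and 7 without the length and GC trend) and 10 rose and 6 fell after it (7 and 11, and 14 and 4 under total reads), with medians of 0.43 and 0.11. The shares of all tested genes were 36.1% and 37%, then 34.8% and 32.4%, near which the falls to day 3 and the second-step counts lie. Reg3g, an antibacterial lectin, went from 39.0 ± 5.70 on day 3 to 13788 ± 3350 normalized counts on day 5 (log2 change 8.41, SE 0.38, adjusted p = 1.18e-07), and Icam1 from 455 ± 125 to 1778 ± 239, whereas Birc5, an inhibitor of cell death that is high in dividing cells, fell from 2782 ± 274 to 463 ± 99.6. Of 25 STAT6 targets 15 were tested, and 8 rose and 4 fell to day 3 and 8 rose and 2 fell after it, with medians of 0.73 and 1.76, against the same shares. The filter could be passed on 1 day alone, and Muc5ac, Itln1 (0, 4.44 and 168 on days 1, 3 and 5) and Tff2 (0.678, 8.88 and 36.5) passed only through day 5. Targets low on all days, such as Chil3 with no read, were left out. The counts of rises after day 3 and the median of 1.76 are therefore partly fixed by the filter. Among those that rose after day 3 were Fcgbp, which binds mucus, from 102 ± 17.7 to 3242 ± 266, and Spdef, a regulator of mucous cells, from 25.2 ± 6.68 to 247 ± 17.6. Muc5ac, a gel-forming mucin, had no read on day 3 and 124 ± 28.2 on day 5. The 2 that fell after day 3 were Serpinb2, from 460 ± 191 to 119 ± 10.2, and Arg1, from 745 ± 176 to 329 ± 17.8. Serpinb2 had been at 3101 ± 540 on day 1. The summed secretory markers given above rose over the same days, and their part in these changes was not tested.

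**Figure D4:**
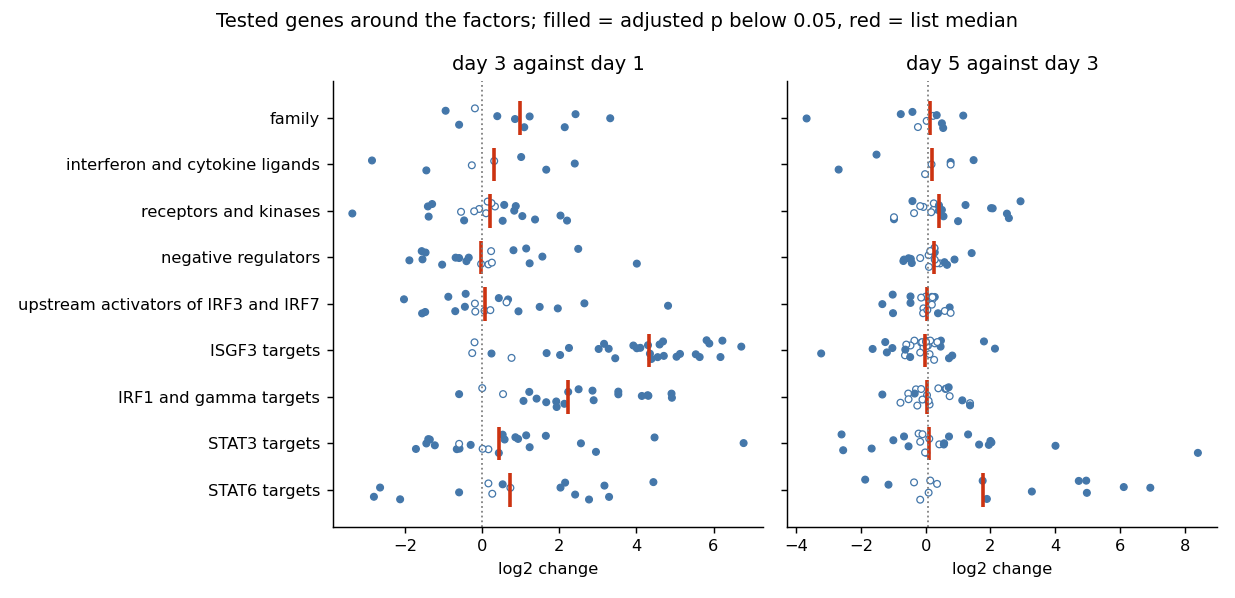
Log2 change of each tested gene of 9 lists around the factors (x axis) for day 3 against day 1 (left) and day 5 against day 3 (right); filled points had an adjusted p below 0.05, red lines are list medians and the dotted line is the median of all tested genes. ISGF3 targets have a median of 4.33 in the left panel and -0.03 in the right one.

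The scaling of libraries decided several of the smaller changes. Under total reads the median of all tested genes moved to -0.24 for day 3 against day 1 and to 0.38 for day 5 against day 3, and the share of calls that were higher from 49.4% to 40.5% and from 51.8% to 67.7%. Without the length and GC trend the median for day 5 against day 3 was -0.22, and 37.3% of calls were higher. That setting also made the mean log2 level equal across libraries, and the part of this in its values was not separated from that of the trend. The 8 factors were called 5 higher and 3 lower on day 3 by the deposited size factors and by total reads. Without the length and GC trend they were called 5 higher and 1 lower, where 51.7% of calls over all genes were higher. From day 3 to day 5 they were called 3 higher and 0 lower under total reads and under quantile normalization (in the latter, 49.2% of calls over all genes were higher), and 2 higher and 5 lower without the length and GC trend. For the third comparison, day 5 with day 1, total reads and quantile normalization each called 7 higher and 0 lower. Over all genes, 51.9% of calls were higher under total reads and 48.3% under quantile normalization. Taking out length and GC gave 5 and 1 there, where 42.9% of calls over all genes were higher. The rises of Irf1, Irf3, Irf7, Irf9 and Stat2 to day 3 and of Irf2 and Stat3 to day 5 passed under all 4 scalings.

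**Figure D5:**
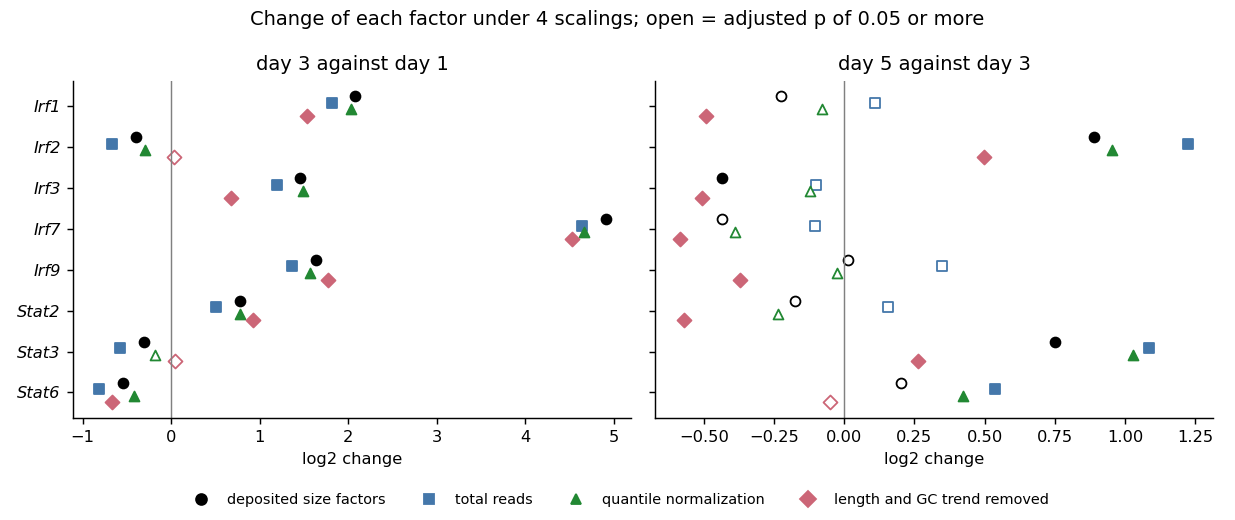
Log2 change of each factor (x axis) for day 3 against day 1 (left) and day 5 against day 3 (right) under 4 scalings, with open symbols where the adjusted p was 0.05 or more. For day 3 the changes of Irf2 and Stat3 lie near 0 after taking out length and GC, and Irf7 stays between 4.53 and 4.91.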

How the data were processed

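Expression was measured by RNA sequencing in 9 libraries, 3 per day. Libraries were made with a VAHTS kit for Illumina from total RNA, per the labels. The submitters' processing notes name HISAT2 2.1.0, DESeq2 1.36.0 and build GRCm39. For the counter, annotation and strand setting, nothing is stated there. The authors deposited log2 values per gene and library, each the log2 of a read count over a size factor with no pseudocount. Cells with no number (297330, all the same spreadsheet error text) were read as 0, and 359 repeated lines of 57107 were dropped. All values (100%) were whole multiples of 1 read within 0.01 read, so reads and size factors could be read back.

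The 17338 genes that reached 10 normalized counts in 3 or more libraries were tested with limma 3.58.1 in R 4.3.3 on log2(normalized count + 1), with a pseudocount of 1, 1 mean per day, all 9 libraries, a mean-variance trend and 6 residual degrees of freedom. Fold changes are on that scale, which understates changes of low genes. Adjusted p values are two-sided limma tests with Benjamini-Hochberg adjustment over all tested genes at 0.05. The script was tested on simulated data. Ratios used exact permutation tests in SciPy 1.17.1. Transcript lengths, GC content (98.3% of tested genes) and exon overlaps came from GENCODE M21 by gene identifier, and promoters from RefSeq (8 of 8 genes matched). Gene positions were not taken across builds.

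The members and lists were chosen with earlier results of these data known. Named genes were all 8 factors, the 3 genes nearest to each among those averaging at least 100 normalized counts, and, per list and comparison, up to 4 called genes of largest change that reached 50 normalized counts on 1 day, of which a part is printed (some are not reported here), with other list genes named where a count or the text needed them. Alternatives covered scaling, pseudocount, filter, model, left-out libraries and a block on the replicate number.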

Additional observations from a re-analysis of the deposited data

How the results depend on the processing

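Of the log2 changes of the 8 factors recomputed under each alternative, 649 kept their direction and side of the threshold, 21 lost the call and 12 gained one with the same sign, and 14 changed sign, of which 4 also lost a call (Irf2 and Stat3) and 2 gained one (Irf9). The count of factors called from day 3 to day 5, 3 in the text, was 7 with the length and GC trend removed, 7 with the replicate block and that trend removed, and 2 to 5 when 1 library was left out, with 5 without replicate 3 of day 5. The same counts when 1 library was left out were 7 to 8 for day 3 against day 1, 7 to 8 for day 5 against day 1, 7 to 8 for the difference of the steps and 8 to 8 for any difference. Sign changes with the length and GC trend removed, with or without the replicate block, were Irf2 (0.026) and Stat3 (0.040) for day 3 against day 1, and Irf9 (-0.37) and Stat6 (-0.052) for day 5 against day 3. For day 5 against day 3, Irf1 (0.11) and Stat2 (0.16) changed sign under total reads, and Irf9, at 0.013 in the text, under quantile normalization (-0.027) and within -0.035 to 0.057 when 1 library was left out (-0.035, -0.014 and -0.0030 for the 3 with a changed sign). The log2 ratio of Irf7 to Irf3 from day 3 to day 5 ranged from -0.12 to 0.17 when 1 library was left out (0.17 without replicate 2 of day 5, 0.081 without replicate 3 of day 3), and that of Stat2 to Stat3 on day 5 against day 1 from -0.013 (without replicate 2 of day 1) to 0.28. The cause was not tested.

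Libraries with the same replicate number deviated from their day means with correlations of -0.31 to 0.14 across genes (9 pairs). For unlike numbers the correlations were -0.15 to 0.36 (18 pairs), so no pairing by number was seen. This check cannot tell whether a number marks a shared animal or culture. With the replicate block the counts of factors called were 8, 3 and 8 for the first step, the second step and the whole span, as without it. Depth limits Irf7 on day 1 most, where counting error alone was 15.2% of the level, against 1.80% for Stat6.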

Other observations

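Promoter windows of the target lists differed in the motifs they held. Of 22 ISGF3 targets with a window, 11 (50%) held the ISRE core, among them Ifit1, Isg15, Bst2, Rsad2 and Oas3, and of 18 targets of IRF1 and type II interferon, 8 (44.4%) held it, among them B2m, Cxcl10 and Gbp2, where 3.99% of all genes did. The list of 20 receptors and kinases held it in 0 of 19 windows. For the GAS the shares were 5 of 16 STAT6 targets (31.2%) and 3 of 20 STAT3 targets (15%), where 9.55% of all genes held it, and for the STAT6-type site 2 of 16 (12.5%) and 4 of 20 (20%), where 8.01% did. The lists are of known targets, so these shares describe the sequences and not these samples.

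Replicate 2 of day 1 had the lowest value of the day for 5 of the 8 factors, including Irf1, Irf7, Irf9 and Stat2, where it was lowest for 32% of tested genes. Replicate 3 of day 1 had the highest value for 6 of the 8, where it was highest for 32.8%.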
